A study of Homo sapiens with 4 samples.

Results

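Hub anchors of the RNAPII loop map of HepG2 cells were defined as anchors that joined at least 10 distinct other anchors in mock-treated cells, with both anchor columns of the loop list counted. There were 329 such hubs among 73492 anchors, or 0.448% (95% Wilson interval 0.402 to 0.499%). HepG2, an established line from a human hepatocellular carcinoma, was used. The cells were treated for 24 h with sterilized water (mock) or with 20 µM pyridostatin (PDS), a small molecule that binds DNA G-quadruplexes (G4), and were then used for POLR2A HiChIP-seq with 2 biological replicates per condition. The replicates had been combined into 1 list of loops per condition, with 66417 loops in the mock list and 18778 in the PDS list, so the spread between replicates could not be measured, and all intervals given here are 95% intervals that cover counting error only. The hubs were chosen by their numbers of partners in the mock list, so those numbers are a description, and neither loops nor hubs were treated as replicates.

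RNAPII HiChIP-seq ligates fragments of chromatin that lie close to each other and then recovers those bound by POLR2A, the largest subunit of RNA polymerase II. A read pair that links such fragments is called a paired-end tag (PET), and a loop is a pair of anchors joined by enough PETs. An anchor with many partners can be a promoter that contacts many distal sites, a distal site that contacts many promoters, or a wide stretch of transcribed chromatin that contacts its whole surroundings. G4s are four-stranded structures formed by runs of G, and they are common in promoters.

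The sequences at some hubs show the range of what these anchors hold. For 5 hubs, chosen with their values known, the 250 bases before the RefSeq start of the gene (GRCh38.p14) are given 5′ to 3′ on the strand of the gene, from the most upstream start where the table lists several. Capitals mark matches on either strand to GGGCGG (the GC box), to TATAAA (the TATA box), to CCAAT, or to a predicted G4 motif, in which 4 runs of 3 or more G are set apart by 1 to 7 other bases. The GC box may lie inside a G4 motif. CEBPB encodes a transcription factor of hepatocytes, NFKBIA the inhibitor of NF-κB, SOCS1 a suppressor of cytokine signaling, LZTS3 a leucine zipper protein and PSMA6 a subunit of the proteasome. The hubs at CEBPB, NFKBIA and SOCS1 kept part of their partners after PDS treatment, while the hubs at LZTS3 and PSMA6 had none in the PDS list.
CEBPB (chr20:50190333-50190582, + strand): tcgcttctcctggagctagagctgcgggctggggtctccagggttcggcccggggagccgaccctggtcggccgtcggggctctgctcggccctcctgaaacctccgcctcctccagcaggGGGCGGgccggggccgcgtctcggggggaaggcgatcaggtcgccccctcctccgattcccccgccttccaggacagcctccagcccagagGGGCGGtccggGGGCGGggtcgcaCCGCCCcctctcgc
NFKBIA (chr14:35404750-35404999, - strand): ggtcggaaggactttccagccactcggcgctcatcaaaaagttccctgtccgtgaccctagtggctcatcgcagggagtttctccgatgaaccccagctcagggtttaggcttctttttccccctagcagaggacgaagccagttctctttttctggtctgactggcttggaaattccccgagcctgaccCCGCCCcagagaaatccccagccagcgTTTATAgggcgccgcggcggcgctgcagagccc
SOCS1 (chr16:11256205-11256454, - strand): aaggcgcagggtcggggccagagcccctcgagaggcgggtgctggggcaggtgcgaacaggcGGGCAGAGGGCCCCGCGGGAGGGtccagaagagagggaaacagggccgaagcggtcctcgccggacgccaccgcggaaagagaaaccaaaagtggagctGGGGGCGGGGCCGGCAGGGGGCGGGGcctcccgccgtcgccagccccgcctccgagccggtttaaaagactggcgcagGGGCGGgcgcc
LZTS3 (chr20:3173550-3173799, - strand): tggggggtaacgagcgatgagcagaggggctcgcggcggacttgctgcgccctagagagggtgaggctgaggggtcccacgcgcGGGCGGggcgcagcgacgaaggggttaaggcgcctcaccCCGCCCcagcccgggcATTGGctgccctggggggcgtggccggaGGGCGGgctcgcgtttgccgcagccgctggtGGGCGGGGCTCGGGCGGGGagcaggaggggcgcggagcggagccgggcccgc
PSMA6 (chr14:35292067-35292316, + strand): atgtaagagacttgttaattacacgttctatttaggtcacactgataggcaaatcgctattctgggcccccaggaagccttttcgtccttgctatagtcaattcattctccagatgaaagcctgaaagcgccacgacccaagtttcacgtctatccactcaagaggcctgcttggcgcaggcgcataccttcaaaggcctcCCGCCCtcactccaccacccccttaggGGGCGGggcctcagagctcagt

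The window of SOCS1 held 2 predicted G4 motifs and that of LZTS3 held 1, and those of CEBPB, NFKBIA and PSMA6 held 0. The GGGCGG motif was found 4 times at CEBPB, 1 time at NFKBIA, 3 times at SOCS1, 5 times at LZTS3 and 2 times at PSMA6. TATAAA was found 1 time, at NFKBIA, and CCAAT 1 time, at LZTS3. Of 35116 RefSeq promoter windows of this length, 42.6% held GGGCGG, 32% CCAAT, 23.5% a G4 motif and 10.7% TATAAA. Only 66 of the 143 protein-coding genes with a start at a hub (46.2%) had such a window there, so motif shares over the genes at hubs were not computed.

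Most hubs were far wider than a promoter, and several of those named below held exactly 1 predicted G4 motif in their whole width. These motifs are given 5′ to 3′ on the strand of the G runs, with the G runs in capitals, because these hubs ranged from the highest shares of partners kept after PDS treatment to 0.
The hub in PRORP (chr14:35236437-35236463, - strand): GGGcttaGGGGttaGGGagcaaatGGG
The first hub in TTC6 (chr14:37718822-37718846, + strand): GGGctttctGGGaGGGtgaggtGGG
The intergenic hub with the highest share kept (chr14:43094584-43094604, + strand): GGGtaGGGGttGGGaggaGGG
The intergenic hub at chr14:43214365-43234879 (chr14:43229997-43230020, - strand): GGGaaatggtGGGctaGGGGaGGG
The hub in TOP1 (chr20:41054293-41054318, - strand): GGGGcaggtgcGGGGGcGGGGtGGGG
The hub at HK2 (chr2:74853146-74853172, + strand): GGGatGGGcaagttGGGGaagttGGGG
The hub at ADGRG6 (chr6:142302393-142302415, - strand): GGGtGGGGtggtcGGGGaGGGGG

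The hub in PRORP kept 16 of 28 partners and the hub at ADGRG6 kept 0 of 11, each with 1 motif. The motif of the hub at HK2 accompanied 3 of 10 partners kept, and that of the hub in TOP1 6 of 10. Most of these hubs were named for a high or a low share of partners kept, so this spread follows from the choice.

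The median hub had 11 partners (interval 11 to 12) with a range of 10 to 29, while the median mock anchor had 1, and 59.8% of anchors had exactly 1. There were 47 hubs with at least 15 partners and 12 with at least 20. Just outside the threshold, 190 anchors had exactly 9 partners, and just inside it 111 hubs had exactly 10. The anchors with 9 partners had a median width of 14305.5 bp and 2 partners in the PDS list, and those with 10 had 15742 bp and 3 PDS partners. The share of partners kept was 18.1% in the first and 22.2% in the second, and a protein-coding promoter lay at 43.7% and 34.2%.

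The hubs held 3767 mock loops, 5.67% of the list, and 17071 mock PETs, with a mean of 4.53 PETs per loop against 3.79 for all other loops. The median hub had 53 mock PETs spread over its partners (range 32 to 150). Loops of 3 PETs, the lowest number listed in either condition, made up 46.2% of hub loops and 60.8% of other mock loops, so loops absent from a list could still have had up to 2 PETs in that condition. The furthest mock partner of a hub lay at a median of 284 kb, and the partners of the median hub spanned 409 kb. The median distance of hub loops was 60437.5 bp (interval 57313 to 63440.5), and that of all other mock loops was 16407 bp.

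Hubs were concentrated on a few chromosomes. Chromosome 14 held 99 hubs, chromosome 20 held 75, chromosome 2 held 62, chromosome 6 held 36, chromosome 16 held 26 and chromosome 17 held 17. Together these 6 chromosomes held 315 hubs, or 95.7%, but 46.7% of mock anchors and 55.2% of mock loops. They had 48.3 mock loops per Mb, while the other autosomes and X had 13.1. HepG2 is known to carry extra copies of these chromosomes or of parts of them. Copy number was not measured in these data, and its part in the number of partners was not tested.

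On chromosome 14 the hubs lay in a stretch of 22.1 Mb from chr14:21211295-43332068, and none lay in the 63.7 Mb beyond it. Loops without a hub anchor numbered 91.6 per Mb in that stretch and 19.4 per Mb beyond it. They come from the same mock list and the same count of partners that chose the hubs. Their densities, here and in the bins below, are therefore a description. Across the 22 autosomes and X, cut into 619 bins of 5 Mb, 96 bins held a hub. The median bin with a hub had 54.0 loops without a hub per Mb, and the median bin without a hub had 10.8. The 62 bins with the highest density of such loops held 254 of 328 hubs, or 77.4%, and 34.3% of these loops.

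**Figure D1:**
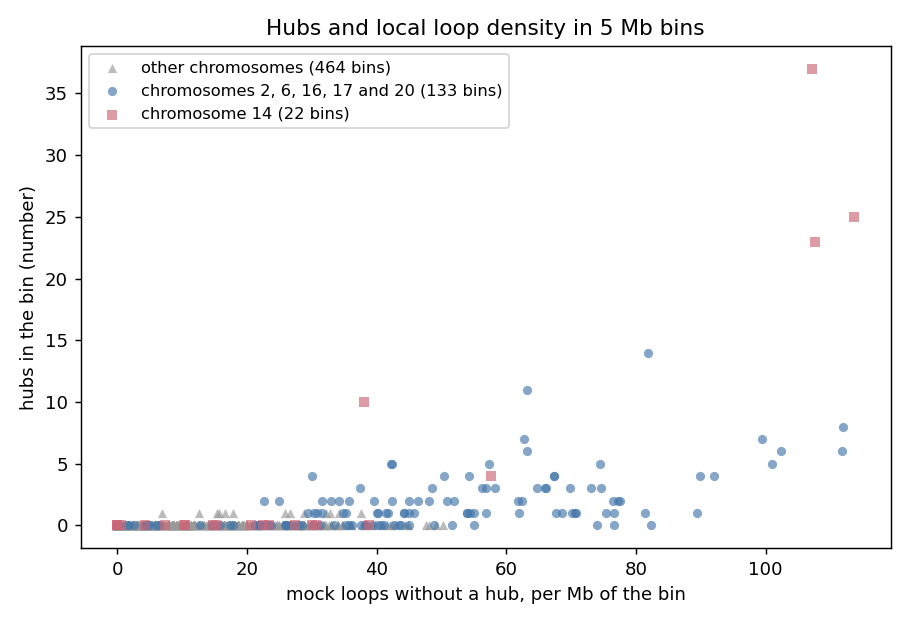
Number of hubs in each 5 Mb bin against the number of mock loops without a hub anchor per Mb of the bin, for 619 bins of the 22 autosomes and X. The 3 bins with most hubs, all on chromosome 14, held 37, 25 and 23 hubs and had over 100 such loops per Mb, and the median bin without a hub had 10.8.

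The remaining 14 hubs had fewer partners, from 10 to 14. Their sites included the starts of CTSB, which encodes the lysosomal protease cathepsin B, of the polarity gene PARD3, of the chaperone gene DNAJB12 and of CYB5R3 and ATP5MGL, the bodies of VWF and PLPPR1, lncRNA starts and stretches between genes, and 1 lay on an unlocalized contig of chromosome 14. The hub at CTSB joined 11 partners in the mock list and kept 4, the hub at PARD3 joined 10 and kept 1, and the hub in PLPPR1 joined 14 and kept 4. The hub in VWF, an endothelial gene, had 10 partners with 32 PETs, the lowest sum of any hub (shared with 1 other hub), and 0 partners in the PDS list.

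Hubs were wide anchors. Their median width was 17411 bp (interval 16590 to 19048), against 5899 bp for all other mock anchors, and they held a median of 44 MboI sites (sequence GATC, the enzyme used to cut the chromatin). All 329 hubs began and ended at a GATC. Their GC content had a median of 41.5%, and a median of 9.28% of their 31-base sequences occurred more than once in the genome, close to 10.8% in a sample of 732 other anchors. Because a wider anchor can collect more PETs and more annotated features, shares over hubs are given below within classes of width.

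A protein-coding promoter, taken as 1 kb on either side of the start of any annotated transcript (GENCODE 44), lay at 127 hubs, or 38.6% (interval 33.5 to 44%), against 25.2% of other anchors. On the 6 chromosomes with most hubs, hubs of up to 10 kb held a promoter in 35.3% of cases (23.6 to 49.0%) against 20.0% of other anchors of that width, hubs of 10 to 20 kb in 37.3% (29.8 to 45.5%) against 27.0%, and hubs over 20 kb in 42.6% (34.2 to 51.5%) against 36.1%. The intervals excluded the value of other anchors in the first 2 classes and held it in the widest. Inside each class hubs were still wider than other anchors, with medians of 8018 and 5157 bp, 15427.5 and 12576 bp, and 26675.5 and 22978 bp. Width was therefore only partly matched, here and in the motif shares by width below. The start of a canonical transcript, the main transcript of a gene in the annotation, lay at 63 hubs, or 19.1% (15.3 to 23.7%), so about as many hubs again held a minor start. A further 96 hubs lay inside a protein-coding gene, 34 at the start of a lncRNA, 14 inside a lncRNA gene and 58 between genes.

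In all, 143 protein-coding genes and 90 lncRNA genes had a start at a hub, or 1.19% and 1.29% of those with a start at any mock anchor, and the former were 0.714% of all protein-coding genes. Of 33 genes for hepatocyte transcription factors and ID inhibitors of differentiation with a start at an anchor, 2 were at hubs, CEBPB and ID2. Of 19 genes of glycolysis and the cytoskeleton 2 were at hubs, HK2 and TUBB. None of the genes for plasma proteins and apolipoproteins (43 at anchors), cholesterol and fatty acid synthesis (19), stress and immediate early factors (26), glutathione and NRF2 targets (20), RNAPII and chromatin (21) or nuclear lncRNAs (14) lay at a hub. As a check of the cell type, 13 of 15 hepatocyte markers had a mock loop at their promoter, with 67 loops in all. For markers of other cell types these values were 6 of 13, with 30 loops. None of these markers had a start at a hub, although a hub lay inside VWF, a marker of endothelial cells.

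Partners of hubs were less often promoters than hubs themselves. The hubs joined 3018 distinct anchors, of which 697, or 23.1% (21.6 to 24.6%), held a protein-coding promoter, against 25.3% of the partners of all other anchors. The 6 chromosomes that held most hubs had fewer promoter anchors, with 21.6% of their anchors that were no hub, so a lower share at hub partners cannot be read from the former value, and width was not matched here. The median hub had 3 promoter partners (range 0 to 12), 80 hubs had at least 5, and 39 had 0. At hubs with a protein-coding promoter the median was 4 promoter partners, at hubs inside a protein-coding gene 3, and at intergenic hubs 1.5.

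The hub with most promoter partners was the widest of all, at chr20:63533304-63584668, with the starts of HELZ2, a nuclear receptor coactivator, of the tyrosine kinase genes PTK6 and SRMS, and of FNDC11. It had 21 mock partners, of which 12 held a promoter, and kept 9 of the 21. Its strongest promoter partner was an anchor at GMEB2 with 13 mock PETs and 4 PDS PETs. Loops to anchors at PPDPF and RTEL1 had 6 and 3 mock PETs and 4 PDS PETs each, and the loop to the shared anchor of DNAJC5 and TPD52L2 had 8 mock PETs and was missing from the PDS list.

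The hub at DNAJC5, which encodes a synaptic vesicle chaperone, joined promoters at 10 of its 12 partners and kept 6. The hub at chr14:24050737-24085185 held starts of CARMIL3, CPNE6 and NRL, and 11 of its 23 partners were promoters. Its loop to an anchor with starts of NRL and PCK2, the mitochondrial phosphoenolpyruvate carboxykinase, went from 18 mock PETs to 6 PDS PETs, and its loops to FITM1 with 8 PETs and REC8 with 6 were missing from the PDS list. The hubs at UCKL1 and ZNF512B, at LLGL2, at TCEA2 and at HNRNPC each had 9 promoter partners, and they kept 3 of 10, 2 of 10, 3 of 11 and 3 of 14 partners.

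The hub at CEBPB (chr20:50185026-50203796) was of another kind. It had 26 mock partners, 22 of them at higher coordinates than the hub and 4 at lower ones, and 1 promoter partner, PTPN1, at 316 kb. It held 26 predicted G4 motifs. After PDS treatment 7 of its partners were kept and 0 were added, and its PETs went from 112 to 23. Its partners included 6 other hubs, none with a loop above 7 mock PETs. The hub at ID2, an inhibitor of differentiation that lacks a DNA-binding domain, had 11 of its 13 partners at lower coordinates and kept 4. The hub at NFKBIA had 10 of 11 partners at lower coordinates and kept 3. In total, 46 hubs (14%) had at least 80% of their partners on the same side, a limit set after the values were seen, and 15 of these held a protein-coding promoter.

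Hubs at some other regulatory genes are given as single values, since they were picked after their values were seen. The hub at TNFAIP3, a regulator of NF-κB signaling, had 12 partners, 0 of them promoters, and kept 3. The hub at SNAI1, a transcription factor of epithelial-mesenchymal transition, had 11 partners, 2 of them promoters, and kept 3. The hub at SOCS1 had 16 partners, 5 of them promoters, and kept 6. The hub at EPAS1, which encodes the hypoxia factor HIF-2α, had 11 partners, 4 of them promoters, and kept 6, the highest share among hubs with a protein-coding promoter.

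Hubs were also partners of one another. A total of 204 hubs joined at least 1 other hub, through 283 loops with a mean of 5.63 mock PETs, against 4.44 for loops with 1 hub anchor. These joined hubs formed 51 groups, of which 16 had at least 4 hubs and held 123 hubs together. The largest group, of 13 hubs at chr14:34668286-35804519, held starts of PSMA6, NFKBIA and RALGAPA1. It was followed by 11 hubs at chr14:37242057-37937917, along MIPOL1 and TTC6, which flank FOXA1, a pioneer factor of liver development. The anchor with the starts of FOXA1 and TTC6 was a partner of the hubs at chr14:37863515-37880870 and chr14:37605518-37629962, with 6 and 3 mock PETs, and neither loop was in the PDS list. The strongest loop of any hub joined 2 hubs inside TTC6, 159.6 kb apart, at chr14:37702683-37722450 and chr14:37863515-37880870, with 31 mock PETs and 9 PDS PETs.

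After PDS treatment nearly all hubs had fewer partners. The median number fell from 11 to 4 (interval 3 to 4), with a range of 0 to 22. Fewer PDS than mock partners were found for 326 hubs, equal numbers for 2, and more for 1. In the PDS list 315 hubs were still anchors, 13 still had at least 10 partners, and 14 had 0. The hubs had 1195 PDS loops, a PDS/mock ratio of 0.317 (0.297 to 0.339), and 4746 PDS PETs, a ratio of 0.278 (0.269 to 0.287). All other loops had a ratio of 0.281 (0.276 to 0.285) for loops and 0.262 for PETs. On the 6 chromosomes with most hubs the loop ratios were 0.321 (0.300 to 0.342) at hubs and 0.319 (0.312 to 0.326) elsewhere, and the intervals overlapped.

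**Figure D2:**
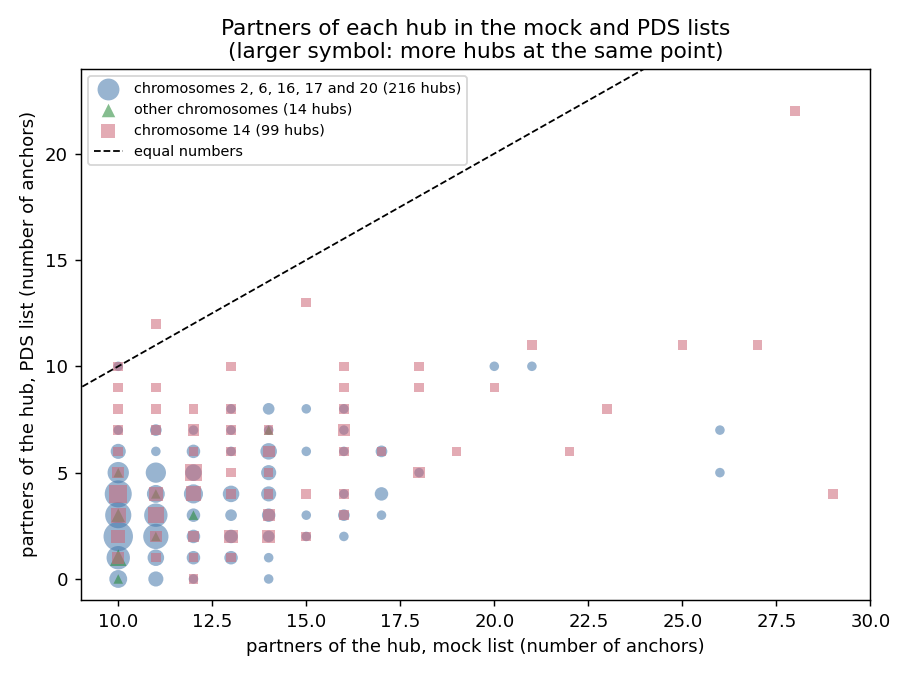
Number of partners of each of the 329 hubs in the mock list (horizontal axis) and in the PDS list (vertical axis), with symbols for chromosome 14, for chromosomes 2, 6, 16, 17 and 20, and for all others; larger symbols stand for more hubs at the same point. All but 3 hubs lie below the dashed line of equal numbers, and the hub in PRORP, with 28 and 22 partners, stands highest.

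Since hubs were chosen for many partners in the mock list, a smaller number in a second list is partly built into the choice. The reverse choice was added after the values were seen. In the PDS list 14 anchors had at least 10 partners, 13 of which were mock hubs, and these 14 had 163 PDS and 243 mock partners, a ratio of 0.671 (0.550 to 0.818). In sum they therefore also had fewer partners after PDS treatment, although by less. The anchor that was no mock hub, chr14:38822601-38847210, had 8 mock and 13 PDS partners. The hub at chr14:43067808-43096088 also had more, with 11 mock and 12 PDS partners. The hubs at chr14:43214365-43234879 and chr20:41035894-41063916 had 10 in both lists.

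Of the 3767 hub loops, 831 joined the same anchors in the PDS list, or 22.1% (20.8 to 23.4%), where 11% of all mock loops and 13.9% of those on the 6 chromosomes were kept. Loops without a hub were kept in 10.4% of cases, and in 13.0% on the 6 chromosomes. These shares depend on exact anchors: with anchors extended by 5 kb on each side, 53.8% of hub loops and 31.2% of other loops were matched. On the 6 chromosomes these values were 54.6% and 39.8%. The median hub kept 3 partners (range 0 to 16). No partner was kept at 21 hubs, exactly 1 at 66, at least 5 at 56 and at least 7 at 13, and at 15 hubs at least 50% of the partners were kept. A further 364 hub loops of the PDS list, 30.5% of its hub loops, were not in the mock list, and the corresponding share was 63.0% for loops without a hub. Hubs were chosen for many mock partners, so a lower share at hubs is partly built into the choice.

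The higher share kept at hubs was seen within classes of mock PETs. On the 6 chromosomes, hub loops of 3 PETs were kept in 10.6% of cases (9.20 to 12.2%) and other loops of 3 PETs in 7.22% (6.86 to 7.60%). For 4 PETs the shares were 17.8% and 13.3%, for 5 PETs 26.4% and 20.2%, and for 6 PETs 37.3% and 29%, with intervals that did not overlap for 4 PETs (15.3 to 20.7% and 12.6 to 14.1%), 5 PETs (22.4 to 30.9% and 18.9 to 21.7%) and 6 PETs (31.6 to 43.4% and 26.8 to 31.3%). For 7 to 9 PETs they were 47.4% (42.3 to 52.5%) and 41.7% (39.2 to 44.2%). For loops of 10 to 14 PETs they were 68.5% (59.9 to 76.1%) and 57.3% (51.7 to 62.7%), and for 15 or more PETs 91.7% of 36 and 86.2% of 29, and in these 3 classes the intervals overlapped. Anchor width moved with this difference. Among loops of 3 PETs whose wider anchor was up to 10 kb, 8.14% of hub loops (5.21 to 12.5%) and 5.38% of other loops (4.96 to 5.83%) were kept; at 10 to 20 kb the shares were 10.3% (8.33 to 12.7%) and 8.78% (8.17 to 9.43%), and above 20 kb 11.6% (9.47 to 14.2%) and 12.6% (10.9 to 14.6%), with overlapping intervals in all 3 classes.

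**Figure D3:**
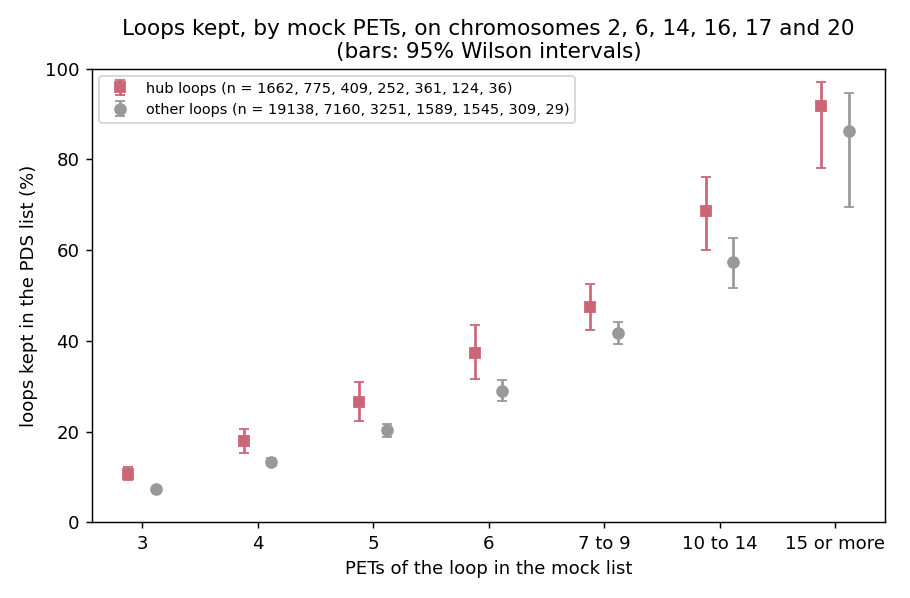
Share of mock loops kept in the PDS list (%) by the number of PETs of the loop in the mock list, for loops with a hub anchor (squares) and without (circles) on chromosomes 2, 6, 14, 16, 17 and 20; bars are 95% Wilson intervals and the numbers of loops are given in the key. Both shares rise with mock PETs, from 10.6% and 7.22% at 3 PETs to 91.7% and 86.2% at 15 or more.

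Hub loops of every distance class were kept more often than other loops of that distance on the same 6 chromosomes. Up to 20 kb the shares were 38.7% (35.0 to 42.6%) and 17.1% (16.6 to 17.7%), from 20 to 50 kb 27.5% and 11.4%, from 50 to 200 kb 16.2% (14.4 to 18.2%) and 4.81% (4.28 to 5.40%), and beyond 200 kb 9.53% (7.29 to 12.4%) and 3.95% (3.14 to 4.95%). In these classes neither PETs nor width were matched. Loops between hubs were kept in 35.7% of cases (30.3 to 41.4%), and loops with 1 hub anchor in 21% (19.6 to 22.3%).

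The values also differed between regions. In the stretch of chromosome 14 that held its hubs, a boundary drawn after the values were seen, hub loops had a PDS/mock ratio of 0.388 (0.348 to 0.432) and loops without a hub a ratio of 0.431 (0.398 to 0.466). Beyond the last hub, loops of chromosome 14 had a ratio of 0.245 (0.216 to 0.278). The share kept was 26% (23.6 to 28.6%) for hub loops and 20.0% (18.3 to 21.8%) for other loops in the stretch, and 6.32% (5.09 to 7.82%) beyond it. Hub loops had ratios of 0.315 (0.275 to 0.362) on chromosome 20, 0.266 (0.226 to 0.312) on chromosome 2, 0.262 (0.212 to 0.325) on chromosome 6, 0.282 (0.223 to 0.357) on chromosome 16 and 0.333 (0.253 to 0.440) on chromosome 17, and of 0.236 (0.164 to 0.341) on all other chromosomes together.

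Hubs at the canonical start of a protein-coding gene had fewer partners in the PDS list than other hubs. The 63 such hubs went from 770 mock to 182 PDS partners, a ratio of 0.236 (0.201 to 0.278), and the 266 others from 3280 to 1126, a ratio of 0.343 (0.321 to 0.367). The ratios were 0.224 (0.155 to 0.324) and 0.410 (0.369 to 0.456) on chromosome 14, and 0.239 (0.200 to 0.286) and 0.306 (0.280 to 0.334) on all other chromosomes, where the intervals overlapped. The difference in the ratio was not particular to hubs. For anchors of either list on the 6 chromosomes that were no hub, the ratio was 0.251 (0.240 to 0.263) with a canonical start and 0.328 (0.323 to 0.334) without. Sums of partners count a loop at each such anchor it joins, so these intervals are too narrow. The share of mock partners kept was 19.4% (16.7 to 22.3%) at hubs with a canonical start and 23.9% (22.4 to 25.4%) at the others. On chromosome 14 these shares were 18.4% (13.1 to 25.3%) and 28.4% (25.9 to 31%), and on all other chromosomes 19.6% (16.6 to 22.9%) and 21.3% (19.6 to 23.1%), where the intervals overlapped. Hubs with any protein-coding start had a ratio of 0.289 (0.260 to 0.321), those inside a protein-coding gene 0.349 (0.312 to 0.390) and those between genes 0.327 (0.281 to 0.379). The contrast by canonical start was chosen after the values were seen.

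**Figure D4:**
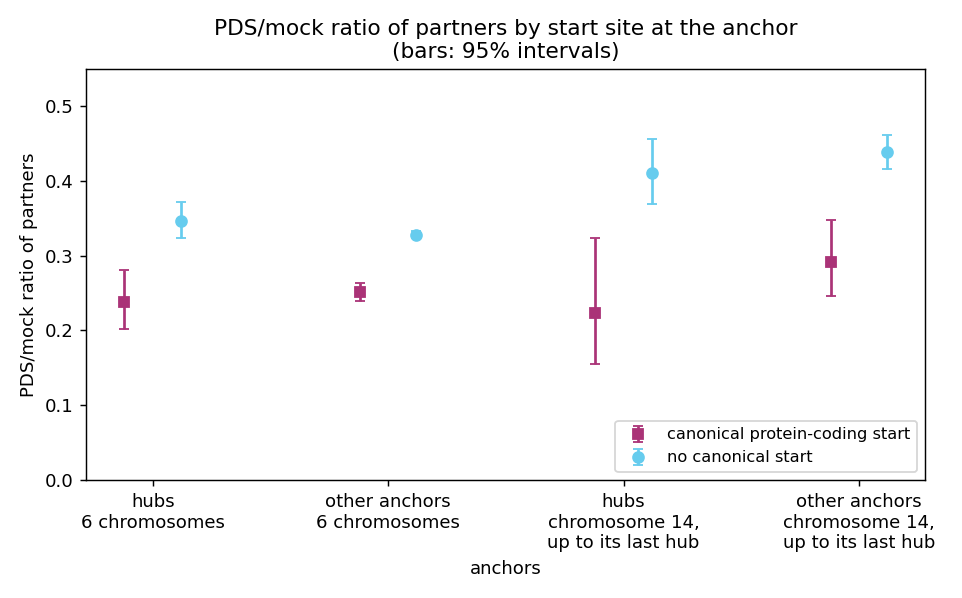
PDS/mock ratio of the summed numbers of partners (vertical axis, from 0) for hubs and for all other anchors, on chromosomes 2, 6, 14, 16, 17 and 20 together and in the stretch of chromosome 14 up to its last hub; squares are anchors with a canonical protein-coding start, circles those without, and bars are 95% intervals. In each of the 4 pairs the square lies below the circle, as at hubs of the 6 chromosomes with 0.238 and 0.347.

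Predicted G4 motifs did not separate the hubs in this way. A motif lay in 228 hubs, or 69.3% (64.1 to 74.0%), with a median of 2 and a maximum of 81 motifs, against 48.1% of other anchors. With runs of at least 4 G, 18.2% of hubs held a motif. Within classes of width the shares were 50% (36.9 to 63.1%) of hubs and 42.6% of other anchors up to 10 kb, 67.3% (59.4 to 74.4%) and 70.8% from 10 to 20 kb, and 79.2% (71.5 to 85.3%) and 89.3% (87.4 to 91.0%) above 20 kb. On the 6 chromosomes the shares above 20 kb were 77.9% (69.7 to 84.3%) and 86.9% (84.1 to 89.4%), with overlapping intervals. Hubs with a motif kept 23.3% of their partners (21.7 to 24.9%) and those without 22.4% (20.2 to 24.9%). Their PDS/mock ratios were 0.323 (0.300 to 0.348) and 0.322 (0.287 to 0.361) for partners, and 0.282 and 0.283 for PETs. These pooled values mix regions, since chromosome 14 held 52 of 228 hubs with a motif and 47 of 101 without. The partner ratios there were 0.415 (0.363 to 0.474) and 0.356 (0.305 to 0.417), with overlapping intervals. On all other chromosomes they were 0.291 (0.266 to 0.319) and 0.288 (0.244 to 0.341). Hubs with a motif were also wider, with medians of 19298.5 and 14966 bp. The 40 hubs with at least 10 motifs kept 25.3% (21.7 to 29.3%), with a partner ratio of 0.309 (0.258 to 0.370) and a PET ratio of 0.259 (0.237 to 0.283). These are motifs of the reference sequence, and G4 structures in the cells were not analysed here.

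The hub with most mock partners, 29, lay at chr14:23921604-23946513 at the start of LINC00596, a long intergenic noncoding RNA. It kept 3 of them and had 4 in the PDS list, and its PETs went from 117 to 17. Its partners reached MYH6 and MYH7, the cardiac myosin heavy chain genes, at 546 and 498 kb with 3 PETs each, and DHRS4, a short-chain dehydrogenase gene, at 19.3 kb with 9 mock and 3 PDS PETs. It had 23 partners at lower and 6 at higher coordinates. The second hub, at chr14:35210336-35242805 inside PRORP, the catalytic subunit of mitochondrial RNase P, had 28 mock and 22 PDS partners. It kept 16 and gained 6, its PETs went from 148 to 98, and both values in the PDS list were the highest of all hubs. Its loop to another hub 82.8 kb away had 10 PETs in both lists, and its loops to 3 anchors with starts of PSMA6 had 7, 4 and 12 mock PETs, of which the first and the last were in the PDS list with 6 and 3.

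**Figure D5:**
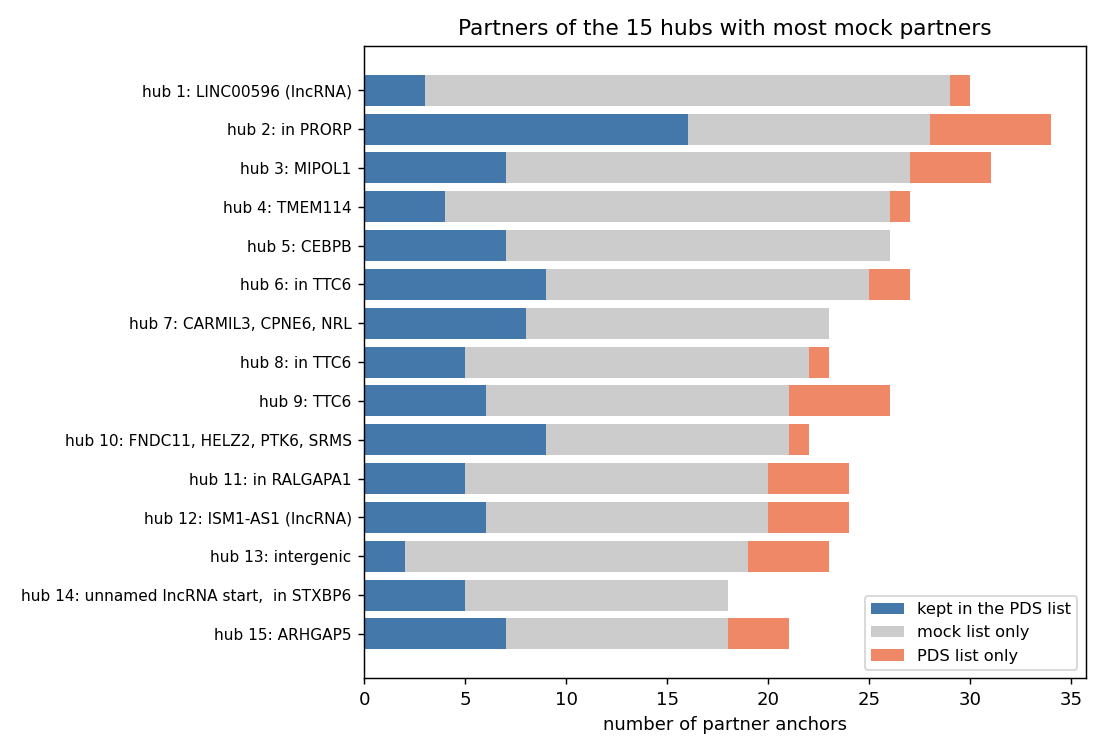
Partner anchors of the 15 hubs with most mock partners, split into those kept in the PDS list, those in the mock list only and those in the PDS list only; hubs are named by the protein-coding or lncRNA start they hold or else by the gene they lie in. The kept part ranges from 2 at the intergenic hub 13 to 16 at the hub in PRORP.

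Of these 15 hubs, 11 lay on chromosome 14, 3 on chromosome 20 and 1 on chromosome 16. The hub at chr14:37411003-37441286 held a minor start of MIPOL1, joined 27 partners and kept 7, with 119 mock and 42 PDS PETs. The hub at chr16:8550008-8574282, at a minor start of TMEM114, joined 26 and kept 4, and PETs went from 120 to 20. Its promoter partners included METTL22, ABAT, which encodes GABA transaminase, PMM2, a phosphomannomutase of protein glycosylation, and the deubiquitinase gene USP7. Of its loops to promoter anchors named here, only the 1 to an anchor at METTL22 was kept, with 6 mock and 3 PDS PETs. Of the pair of hubs inside TTC6 joined by 31 PETs, the first joined 25 and kept 9, and the second joined 22 and kept 5, with the highest mock PETs of all hubs, 150, and 28 PDS PETs. The hub at a minor start of TTC6 joined 21 and kept 6.

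The hub in RALGAPA1, a subunit of a RalGAP complex, joined 20 and kept 5. Its loop to a neighbouring hub of the gene had 9 mock and 13 PDS PETs. The hub at ISM1-AS1 on chromosome 20 joined 20 and kept 6, among them the loop to the promoter of ISM1 with 10 mock and 5 PDS PETs. The intergenic hub at chr14:24692237-24728192, whose nearest gene was GZMB at 57970 bp, joined 19 and kept 2. Nearby, the hub at a lncRNA start inside STXBP6 joined 18 and kept 5, and its strongest loop, to a hub 21.8 kb away, went from 17 to 7 PETs.

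Of the 21 hubs that kept 0 partners, the 5 with most mock PETs are described first. An intergenic hub at chr20:53907666-53920232, 75871 bp from BCAS1, lost all 14 partners, the hub at LZTS3 its 11 and the hub at ADGRG6, an adhesion G protein-coupled receptor gene, its 11, and none of these 3 was an anchor in the PDS list. The strongest mock loop of the hub at ADGRG6 joined it to another hub at 69.6 kb with 13 PETs. The hub in AGFG1 kept 0 of 13 and had 2 other PDS partners. The hub at VEGFA, which encodes the vascular endothelial growth factor, kept 0 of 12, with 51 mock PETs and 3 PDS PETs to 1 anchor, at TMEM63B. For 12 partners a count of 0 kept still allows a share of up to 24.2% by the Wilson interval.

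The other hubs with 0 PDS partners lay at the starts of PSMA6, of ZFP36L2, an RNA-binding protein gene, of CAVIN2, SPTLC3 and PTCRA, inside TCF7L1, VWF and NCOA3, and between genes near PTPN1, BTN3A2 and IFNGR1. Of the 14 hubs without PDS partners, 7 held a canonical protein-coding start and 1 lay on chromosome 14, the hub at PSMA6. The latter was 4952 bp wide with 12 mock partners and 44 PETs, and it lay 64.4 kb from the hub in PRORP, to which it was joined by 4 mock PETs.

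The highest shares kept were found at an intergenic hub at chr14:43067808-43096088 (7 of 11), at another at chr14:43214365-43234879 (6 of 10), in TOP1, which encodes DNA topoisomerase I (6 of 10), in PRORP (16 of 28) and in EML4 (6 of 11). The hub at EPAS1 and a hub inside a lncRNA gene of chromosome 14 also kept 6 of 11, with fewer mock PETs than the hub in EML4. None of the first 5 held a protein-coding start. The first had 12 partners in the PDS list against 11 in the mock list and was the only hub with more. Its PETs went from 74 to 54, and those of the hub in TOP1 from 68 to 45. The intergenic pair belonged to a group of 10 joined hubs at chr14:41436358-43332068, a region without a protein-coding promoter at any hub. This group had 100 mock and 63 PDS loops, a ratio of 0.630 (0.460 to 0.862), and kept 38.0% (29.1 to 47.8%), the highest of the 16 groups of at least 4 hubs. The hub at chr14:43283279-43308036, in the same group, joined 15 mock and 13 PDS partners, of which 7 were shared, with 97 and 59 PETs.

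Among the larger groups, that of PSMA6, NFKBIA and RALGAPA1 kept 28.9% of 159 loops (22.4 to 36.4%), and that of MIPOL1 and TTC6 31.8% of 151 (24.9 to 39.6%). The 8 hubs around HELZ2 and DNAJC5 at the end of chromosome 20 kept 32.1% (22.9 to 42.9%), and the 7 hubs around CEBPB 18.4% (11.3 to 28.6%), with 76 mock and 16 PDS loops. The lowest shares were found in 2 groups of chromosome 20, of 6 hubs each. The group at chr20:2944997-3360614, with LZTS3, FASTKD5, GNRH2 and MRPS26, kept 11.9% of 67 loops (6.18 to 21.8%), and the group at chr20:53585336-53920232, with ZNF217, a zinc finger gene amplified in cancers, kept 12.7% of 71 (6.81 to 22.4%).

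The other genes of the gene lists lay within this range. The hub at ID2 (chr2:8674423-8686845) had 62 mock and 16 PDS PETs with 4 of 13 partners kept. The hub at HK2 (chr2:74839890-74853628), the hexokinase of many tumours, lay within 1 kb of a minor start of the gene (705 bp), had 36 mock and 13 PDS PETs and kept 3 of 10. The hub at TUBB, a β-tubulin gene, and MDC1, a mediator of the DNA damage checkpoint (chr6:30716450-30726621), kept 1 of 11, with 49 mock and 3 PDS PETs. Its loop to the shared anchor of IER3 and FLOT1 had 6 mock PETs and was missing from the PDS list. With 10 to 13 partners each, the shares kept at these hubs could not be told apart.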

How the data were processed

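POLR2A HiChIP-seq of HepG2 cells, with 2 libraries per condition, was cut with MboI. According to the submitters' processing notes, HiC-Pro 3.1.0 and GRCh38 were used. The loop caller and the way replicates were combined are not given in the sources used here. The authors deposited 1 loop list for each condition, which gives both anchors and the PET count of every loop with at least 3 PETs. The deposited counts sum to 254647 (mock) and 67001 (PDS), which are sums over listed loops and not library depth. No column was left unused.

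Partners were counted from both anchor columns, and a loop was kept when the PDS list held the same pair of anchors. Genes were taken from GENCODE 44 and promoter sequences from RefSeq (GRCh38.p14), with Python 3.11.15, pandas 2.3.3, numpy 2.4.6, scipy 1.17.1, pysam 0.24.0, networkx 3.6.1, matplotlib 3.10.9 and samtools 1.23.1. Shares have 95% Wilson intervals, ratios an interval converted from that of the PDS part of both counts, and medians a binomial-rank interval. They cover counting error only, since PETs are not independent molecules, and no p-value was computed because there was 1 list per condition. Where partners were summed over anchors, a loop between anchors of the same set counted at both, which makes those intervals too narrow. Summed over hubs, there were 4050 mock partners for 3767 loops. Loops absent from a list may still have had 1 or 2 PETs.

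The hubs and gene lists were chosen with earlier results of these data known. Named hubs were the 15 with most mock partners, the 5 with most partners kept, the 5 highest and the 5 lowest by share kept (ties by more mock PETs), the 5 with most PDS partners not in the mock list, and hubs at genes of the lists; other hubs, the classes and the contrasts described as such were chosen after their values were seen. On simulated lists, 25 of 25 hubs, 105 of 105 kept loops and 500 of 500 motifs were recovered. Alternatives covered the number of partners, PETs, distance, chromosomes, multi-copy sequence, matching, promoter and motif definitions.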

Additional observations from a re-analysis of the deposited data

How the results depend on the processing

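Of 77 alternative values, 29 stayed within the counting interval or within 1.5 times the count, and 48 moved, in the order used here: number of hubs, share of loops kept, PDS/mock ratios of loops and of PETs, promoter share of hubs and of partners, share with a G4 motif, and median width. The motif density given below was counted among the 48 without this rule, and its unit differs from that of the share. With at least 8 partners there were 801 hubs, with 20.4% kept, a PET ratio of 0.307, 25.3% promoter partners and a width of 15539 bp. With at least 15 there were 47, with 25.9%, ratios of 0.361 and 0.318, promoters at 23.4% of hubs and 19.3% of partners, a motif in 83.0% and a width of 24758 bp. With at least 4 PETs there were 37, with 20.5%, ratios of 0.258 and 0.223, promoters at 48.6%, a motif in 81.1% and a width of 22594 bp. Loops of 5 to 200 kb gave 214 hubs and 24.7% kept, and loops of at least 20 kb gave 165, a PET ratio of 0.295 and a width of 21969 bp. Without the 6 chromosomes 14 hubs remained, with 17.6%, ratios of 0.236 and 0.222, promoters at 28.6%, a motif in 92.9% and a width of 20499.5 bp. Hubs with under 5% multi-copy sequence numbered 74, with 24.0% kept and promoters at 48.6%. Anchors extended by 5 kb gave 53.8% kept at hubs and 31.2% for other loops, and 54.6% and 39.8% on the 6 chromosomes. A wider promoter window gave 26.7% of partners, and canonical transcripts 19.1% of hubs and 10.5% of partners. Protein-coding and lncRNA starts together gave 48.9% of hubs and 30.4% of partners. Spacers of 1 to 12 bases gave a motif in 85.1% of hubs, runs of at least 4 G in 18.2%, and the density was 2.59 motifs per 10 kb. Without chromosome 14, an alternative chosen after seeing the data, 20.3% were kept, the ratios were 0.287 and 0.250, and 76.5% held a motif. The causes of these shifts were not tested. No paired analysis was possible because each list combines both replicates, and leaving out a replicate was not run for the same reason. Library depth was not known, and a loop absent from a list may have had 2 PETs.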
